A study of Mus musculus with 30 samples.

Results

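Lean mice that received a high-fat diet (HFD) for 48 h were compared with lean mice that stayed on control diet, with gene expression measured in gonadal white adipose tissue (gWAT), the visceral fat pad beside the testes. The comparison took every array labelled with either of these groups, 6 lean and 6 lean-HFD arrays, 12 of the 30 in the study. All animals were male wild-type C57BL6/J mice aged 35 weeks, with 1 array per mouse. Before sampling, lean mice had been fed for 27 weeks on control diet, with 10.5% of energy from fat, and lean-HFD mice had the same history before HFD (58% of energy from fat) was given for the first time. The authors describe this HFD as high in sucrose too. The same short exposure was also given to formerly obese mice, fed HFD for 20 weeks and then control diet for 7 weeks (formerly obese and formerly obese-HFD, 6 arrays each), and 6 obese mice had eaten HFD for 27 weeks. The labels name neither cages nor collection batches, so the p-values measure the spread between mice as labelled.

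White fat makes fatty acids from glucose and acetate by de novo lipogenesis. Acly and Acss2 provide acetyl-CoA from citrate and from acetate, Acaca turns it into malonyl-CoA, Fasn joins these units into palmitate, Elovl6 lengthens palmitate, and Me1 delivers part of the NADPH that the pathway uses. The pathway is known to be driven by insulin and carbohydrate through the transcription factors SREBP-1c and ChREBP, and to be low when dietary fat is plentiful. Alb encodes serum albumin, which is made by hepatocytes and not by adipocytes, so transcripts that vary together with Alb between fat samples were set apart before the other genes were described.

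The defining markers of adipocytes were above the level limit (a group mean over the log2 of 16) in both groups. The adipokine gene Adipoq had a mean of 11.71 ± 0.03 (SD, n = 6) log2 units in lean and differed by 0.02 ± 0.07 (SE) in lean-HFD mice. Differences were -0.09 ± 0.10 for Plin1, which coats lipid droplets, -0.04 ± 0.08 for hormone-sensitive lipase Lipe, 0.01 ± 0.06 for the fatty acid carrier Fabp4, 0.03 ± 0.07 for the lipid droplet gene Cidec and -0.10 ± 0.22 for leptin, Lep. The median level per array lay between 4.88 and 4.94 in the 12 arrays, and correlations between arrays between 0.958 and 0.984. RMA levels are log2 values, so a difference of 1 corresponds to a doubling, and every difference below is lean-HFD minus lean in these units with its limma SE unless stated otherwise.

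Only 1 of 41345 probe sets (0.00242%) was called in lean-HFD against lean mice at an adjusted p under 0.10, a fold over 1.3 and a group mean over the log2 of 16, and 2440 had an unadjusted p under 0.05. With no difference anywhere, a share near 0.05 of all probe sets would have such a p, here and in the later comparisons. The called probe set, 17206469, has no gene symbol in the annotation used here. Its lowest, median and highest levels were 4.40, 4.82 and 4.93 in lean and 5.57, 5.77 and 6.03 in lean-HFD mice, so that the groups did not overlap (0.143% of all probe sets were higher without overlap). It rose by 1.02 ± 0.11 (limma, adjusted p = 0.0202), and the same exposure in formerly obese mice gave -0.35 ± 0.20 (adjusted p = 0.934). Its interaction, the lean minus the formerly obese response, was 1.37 ± 0.24 (limma, adjusted p = 0.265) and was not called. It is one of 5333 probe sets whose numbers precede the first with a symbol, 17210855, and 70 of these were higher and 18 lower in the looser set described next, 1.65% of them beside 0.492% of the other probe sets. What these 5333 probe sets measure, including whether they are control probe sets of the platform, is not given in the sources used here.

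A looser set, with an unadjusted p under 0.01 and the same fold and level filters, held 265 probe sets (0.641%), 175 higher and 90 lower in lean-HFD mice. Of these, 116 had exactly 1 gene symbol and 142 had none. Counted with 1 probe set per gene, 50 of 22180 genes (0.225%) were higher and 56 (0.252%) lower. No gene with a symbol passed the adjusted threshold in this comparison, so the genes below are described by their values, with adjusted p-values of limma, and with the same measure in the formerly obese mice. The ranking by fold used no formerly obese array, but the correlation with Alb used all 30.

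Hepatocyte transcripts were higher in lean-HFD than in lean gWAT, and their level varied widely between mice of the same group. Alb (probe set 17438886) had a lowest, median and highest level of 6.71, 8.96 and 11.16 in lean and of 8.18, 11.27 and 12.33 in lean-HFD mice. The groups overlapped, with lean replicate 4 above 3 of the lean-HFD arrays and lean-HFD replicate 3 below 4 of the lean arrays. Alb differed by 1.99 ± 0.81 (limma, adjusted p = 0.841). In bulk tissue, more cells of a type and more RNA per cell cannot be told apart. How hepatocyte RNA came to be in these fat samples was not tested.

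**Figure D1:**
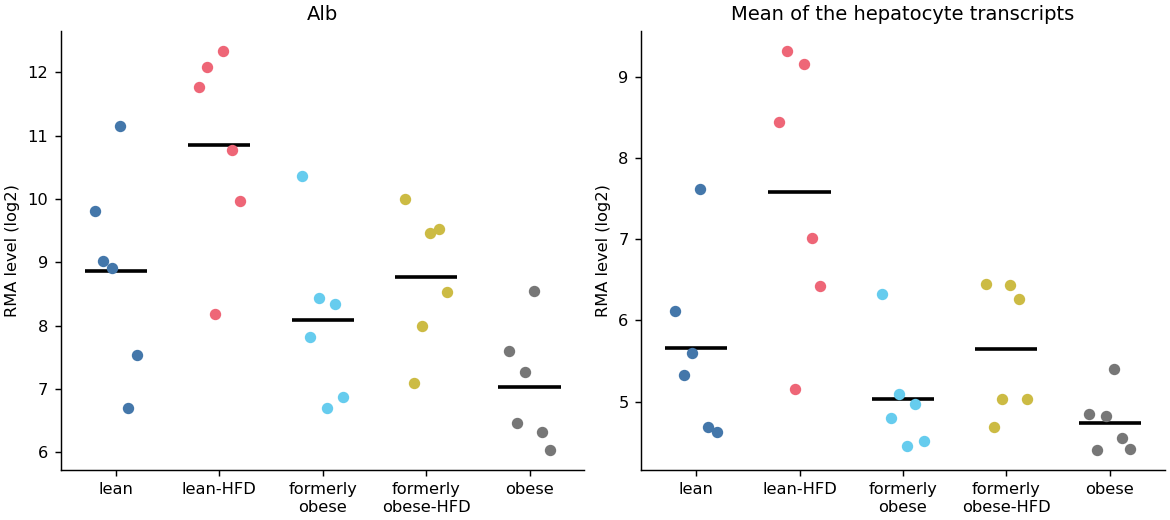
Level (log2 RMA units) of Alb, left, and mean level of the 23 measured hepatocyte transcripts, right, in each of the 6 arrays of every group; points are arrays and black lines group means. The hepatocyte mean ran from 4.63 to 7.62 in lean and from 5.15 to 9.31 in lean-HFD mice, and the ranges overlap.

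After group means were removed, 78 probe sets correlated with Alb at r of 0.7 or more over all 30 arrays (the points share each array's tissue piece and RNA). Of these, 56 carried 1 symbol, among them Apoa2 (r = 0.97), an apolipoprotein of HDL, Fabp1 (0.96), the fatty acid carrier of liver, Hamp (0.96), the iron hormone hepcidin, and the thyroid hormone carrier Ttr (0.94). Higher values in lean-HFD mice were seen for 77 of the 78, with a median difference of 2.09. In the looser set were 11 of the 78 (14.1%), against 0.616% of all other probe sets. The 78 were chosen for moving with Alb between mice, so these counts add no independent support to the difference in Alb. The single exception was the serine protease gene Prss36. The 3 genes just inside the limit were Serpind1, Cyp3a11 and Otc (r = 0.70 each, differences 1.29, 0.99 and 1.24), and the 3 just outside were C8b, Hpx and Hrg (r = 0.70 each, differences 1.52, 1.95 and 2.19).

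Of 26 listed hepatocyte genes, 23 were measured. All 23 were higher in lean-HFD mice with a median of 2.01 beside -0.01 over all 22180 genes, 17 followed Alb, and 5 were in the looser set. The fibrinogen gene Fgb was the highest of them, with levels of 4.11, 5.35 and 8.44 (lowest, median, highest) in lean and 5.67, 8.55 and 10.48 in lean-HFD mice and a difference of 2.83 ± 0.89 (adjusted p = 0.825). Fga differed by 2.81 ± 0.90 and Ahsg, the plasma protein fetuin-A, by 2.47 ± 0.80. Outside the list, the looser set held Cyp2a12 (2.52 ± 0.75), a liver cytochrome P450, the urinary protein gene Mup21 (2.37 ± 0.73) and Azgp1 (2.13 ± 0.58), which also follow Alb.

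The separation left a fringe. Of the 12 genes of the looser set with the largest positive differences among those that did not reach r of 0.7, 11 had r between 0.42 and 0.70, and most of them are known as genes of liver. Serpina1e, a copy of the alpha-1-antitrypsin gene, differed by 2.46 ± 0.59 (r = 0.63), the heme binder Hpx by 1.95 ± 0.63 (r = 0.70), the HDL enzyme Pon1 by 1.90 ± 0.46 (r = 0.42) and the complement gene C8a by 1.29 ± 0.38 (r = 0.59). Cyp3a25, Tdo2, Cyp2d13, Ces3b, Fgl1, Itih3 and Nr1i3 ranged from 0.91 to 1.81. Members of the Serpina1, Mup, Cyp2d and Ces families have near-identical copies whose probes may share signal. With r of 0.4 or more counted as following, 27 of the 175 higher probe sets of the looser set and 3 of the 90 lower ones moved with Alb within groups. The part of hepatocyte RNA in the other differences was not tested, and the correlation with Alb is given below for some genes only. Among genes described below without it, r was 0.39 for the second probe set of Plagl1, 0.32 for Odf3l1, 0.31 for Hsd3b2 and 0.27 for Ak4.

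**Figure D2:**
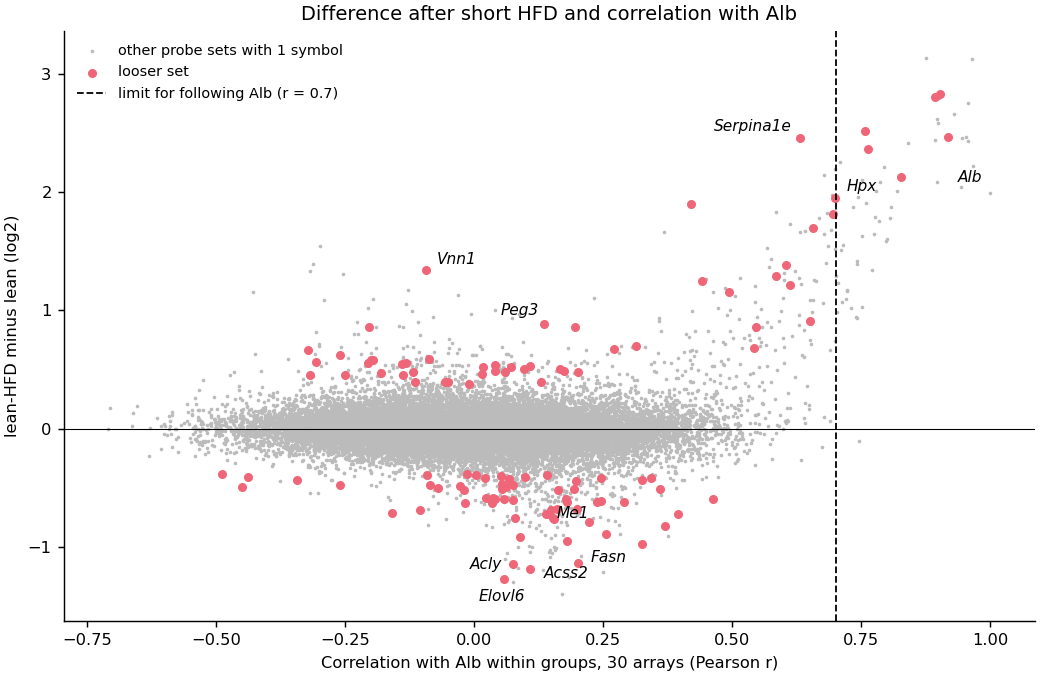
Difference of lean-HFD minus lean (log2, vertical axis) against the correlation with Alb within groups over 30 arrays (horizontal axis) for each of 23521 probe sets with 1 symbol. Red points are the looser set and the dashed line marks r = 0.7; the lipogenic genes lie at r between 0.06 and 0.20 and Vnn1 at -0.09, while the hepatocyte genes form the arm at upper right.

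Within the looser set, the 4 named genes with the largest negative differences were Elovl6, Acss2, Acly and Fasn, all of fatty acid synthesis, and Me1 was also among the 12 largest. Differences of genes outside that set reached -1.40. To show what sequence they have upstream, the 250 bases before the RefSeq transcript start of these 4 are printed 5′ to 3′ on each gene's strand (GRCm38.p6), with matches to GGGCGG, the GC box letters, and CCAAT, on either strand, in capitals. The windows are chr2:155517793-155518042, plus strand for Acss2, chr11:100528001-100528250, minus strand for Acly, chr11:120824548-120824797, minus strand for Fasn and chr3:129532136-129532385, plus strand for Elovl6.
Acss2: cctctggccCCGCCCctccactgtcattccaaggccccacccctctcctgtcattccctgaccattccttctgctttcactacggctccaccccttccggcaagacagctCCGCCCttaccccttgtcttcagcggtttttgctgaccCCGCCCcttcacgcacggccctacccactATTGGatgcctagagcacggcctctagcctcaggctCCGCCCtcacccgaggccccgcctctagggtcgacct
Acly: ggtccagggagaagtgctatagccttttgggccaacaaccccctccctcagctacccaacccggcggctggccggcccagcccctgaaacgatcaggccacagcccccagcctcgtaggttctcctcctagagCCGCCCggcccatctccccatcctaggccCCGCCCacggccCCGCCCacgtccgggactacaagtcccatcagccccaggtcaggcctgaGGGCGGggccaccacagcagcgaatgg
Fasn: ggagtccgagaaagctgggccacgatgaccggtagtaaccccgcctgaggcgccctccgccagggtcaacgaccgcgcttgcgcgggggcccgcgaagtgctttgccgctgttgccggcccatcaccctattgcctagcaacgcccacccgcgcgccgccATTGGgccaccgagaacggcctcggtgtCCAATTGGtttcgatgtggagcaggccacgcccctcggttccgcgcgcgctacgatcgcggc
Elovl6: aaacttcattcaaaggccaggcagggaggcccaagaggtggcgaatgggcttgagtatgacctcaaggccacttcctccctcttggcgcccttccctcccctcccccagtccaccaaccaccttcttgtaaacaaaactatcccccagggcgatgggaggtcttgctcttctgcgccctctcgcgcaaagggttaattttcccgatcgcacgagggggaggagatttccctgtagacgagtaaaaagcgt

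GGGCGG occurred 4 times upstream of Acss2 and 4 times upstream of Acly, and CCAAT 1 time upstream of Acss2 and 3 times upstream of Fasn, where 2 of the matches overlap. Of 32851 RefSeq windows of the same length, 32.7% held GGGCGG and 33.8% held CCAAT, and Elovl6 held neither. The letters TCACNCCAC, a form of the sterol regulatory element that SREBP proteins bind, were in 1.05% of all windows. CACGTG, a form of the E-box, was in 6.02%. Neither string of letters was in these 4 windows, and other forms of both elements were not searched.

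Fasn (probe set 17273348), fatty acid synthase, had a lowest, median and highest level of 10.80, 11.44 and 11.87 in lean and of 9.53, 10.30 and 11.02 in lean-HFD mice. All 6 lean-HFD arrays lay below the lean mean, and only lean-HFD replicate 2 lay above the lowest lean array, replicate 2. The difference was -1.14 ± 0.23 (limma, adjusted p = 0.786, r with Alb 0.20), a 2.21-fold lower level.

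Acly (17269521), ATP citrate lyase, had levels of 8.76, 9.79 and 10.32 in lean and 8.16, 8.46 and 9.50 in lean-HFD mice, a difference of -1.14 ± 0.27 (adjusted p = 0.786). Elovl6 (17402558) had levels of 7.51, 8.29 and 9.55 against 6.15, 7.18 and 7.81, a difference of -1.27 ± 0.33 (adjusted p = 0.797). For Acly only lean-HFD replicate 2 reached into the lean range, above lean replicates 2 and 4. For Elovl6 lean-HFD replicates 1 and 2 lay above lean replicate 2 and below the other lean arrays.

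Acss2 (17378359), the cytosolic acetyl-CoA synthetase, had levels of 7.65, 8.65 and 9.16 in lean and 6.58, 7.28 and 8.57 in lean-HFD mice, a difference of -1.19 ± 0.32 (adjusted p = 0.821). Me1 (17529398), cytosolic malic enzyme, had levels of 10.39, 10.99 and 11.40 against 9.54, 10.23 and 10.88, a difference of -0.72 ± 0.20 (adjusted p = 0.825). For each of these 5 genes, all 6 lean-HFD arrays lay below the lean mean.

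**Figure D3:**
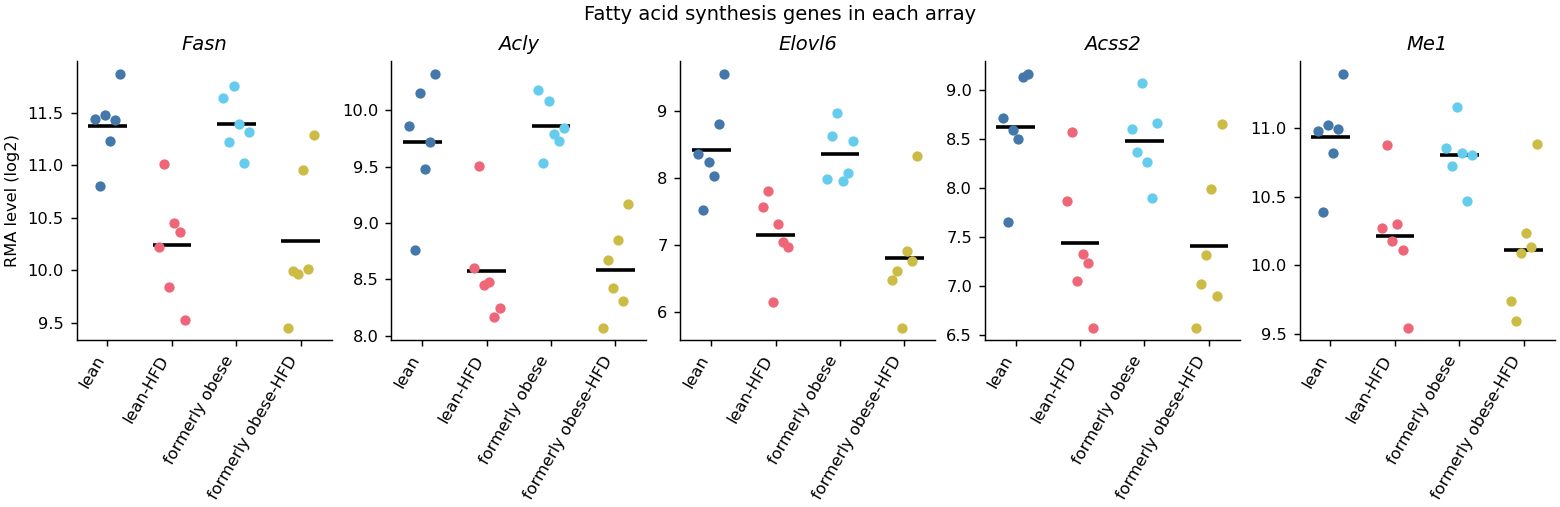
Levels (log2 RMA units) of Fasn, Acly, Elovl6, Acss2 and Me1 in each array of the lean, lean-HFD, formerly obese and formerly obese-HFD groups; points are arrays (n = 6 per group) and black lines group means. Means of the groups after short HFD lie below those of their controls in every panel, with lean replicate 2 the lowest lean array and lean-HFD replicate 2 the highest lean-HFD array.

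The 5 genes moved together between mice of the same group, with pairwise r from 0.62 to 0.92 over the 30 arrays after group means were removed. Their mean level ran from 9.02 to 10.46 in lean and from 8.17 to 9.55 in lean-HFD mice, and correlated with Alb at r = 0.12. Lean-HFD replicate 2 was the highest array of its group and lean replicate 2 the lowest of its own. Without lean-HFD replicate 2 the differences became -1.30 for Fasn, -1.33 for Acly, -1.41 for Elovl6, -1.41 for Acss2 and -0.86 for Me1, and the adjusted p-values ran from 0.238 to 0.650. With Alb as a covariate the differences were -1.29 ± 0.28, -1.17 ± 0.34, -1.34 ± 0.42, -1.29 ± 0.41 and -0.78 ± 0.25 in the same order, and with the mean of the hepatocyte transcripts they were -1.41, -1.30, -1.51, -1.50 and -0.89.

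Of 18 measured genes of the fatty acid synthesis list, 5 were in the looser set, all lower, beside 0.252% of all genes. Over the list 11 were lower and 7 higher, with a median of -0.08. Acaca, acetyl-CoA carboxylase 1, differed by -0.59 ± 0.21 (adjusted p = 0.825), and Slc25a1, the mitochondrial citrate carrier, by -0.41 ± 0.15. The desaturase gene Scd1 (-0.04 ± 0.07), the lipogenic regulator Thrsp (-0.06 ± 0.10), Srebf1, which encodes SREBP-1 (0.08 ± 0.12), and Mlxipl, which encodes ChREBP (0.30 ± 0.16), differed from 0 by less than 2 SE. Acacb, the mitochondrial acetyl-CoA carboxylase, had a value of 0.69 ± 0.38 in the other direction. A probe set that the annotation assigns to both Tkt, an enzyme of the pentose phosphate pathway, and Mir3076 differed by -0.75.

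Genes of triglyceride assembly and of sterol synthesis each had 1 member in the looser set. Of 15 measured genes of triglyceride synthesis 7 were lower and 8 higher, with a median of 0.01. The member in the looser set was Mogat2, a monoacylglycerol acyltransferase, with -0.68 ± 0.22 (adjusted p = 0.825). Gpd1, which makes glycerol 3-phosphate, had -0.46 ± 0.20, Dgat2, which adds the last acyl chain, -0.39 ± 0.17, and the lipin Lpin3 -0.36 ± 0.16. Of 19 genes of cholesterol synthesis and uptake 15 were lower, with a median of -0.10, and only Nsdhl, a sterol dehydrogenase, was in the looser set (-0.76 ± 0.23, adjusted p = 0.825). The mevalonate pathway kinase genes Pmvk (-0.33 ± 0.17) and Mvk (-0.16 ± 0.11) and the sterol reductase gene Dhcr7 (-0.23 ± 0.20) were not.

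Glycolytic genes were lower in most cases. Of 15 measured genes 12 were lower, with a median of -0.15. Pkm, pyruvate kinase, had levels of 9.13, 9.33 and 9.51 in lean and 8.76, 8.92 and 9.08 in lean-HFD mice, without overlap (0.116% of all probe sets were lower without overlap), and a difference of -0.39 ± 0.08 (adjusted p = 0.786). Pgk1 (-0.31 ± 0.10), Gapdh (-0.21 ± 0.07) and Tpi1 (-0.41 ± 0.15) pointed the same way but were outside the looser set, the first and second of them through the fold filter.

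The other 7 genes completed the 12 of the looser set with the largest negative differences. Enpep, the angiotensin-cleaving aminopeptidase A, had levels of 9.30, 9.70 and 10.05 in lean and 8.40, 8.91 and 9.40 in lean-HFD mice, a difference of -0.79 ± 0.19 (adjusted p = 0.786). Trhde, which degrades thyrotropin-releasing hormone, differed by -0.76 ± 0.21, and Plagl1, an imprinted zinc finger gene, by -0.76 ± 0.22, with -0.72 at its second probe set. Odf3l1 differed by -0.97 ± 0.30, Folh1, a folate hydrolase, by -0.91 ± 0.29, and Sorl1, a sorting receptor, by -0.72 ± 0.20. Nsdhl is given above. For 6 of these 7 genes all 6 lean-HFD arrays lay below the lean mean, and for Folh1 5 of 6 did.

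Among the higher genes of the looser set at r under 0.4 with Alb, Vnn1 had the largest difference. The 12 described here, those of that set with the largest differences, were picked after their values had been seen. Vnn1, a pantetheinase and known target of PPAR-alpha, had levels of 4.46, 4.76 and 5.73 in lean and 5.37, 6.17 and 6.98 in lean-HFD mice, a difference of 1.34 ± 0.28 (adjusted p = 0.786, r with Alb -0.09). Only lean replicate 2 lay above the lowest lean-HFD array. With Alb as a covariate the value was 1.50 ± 0.34.

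Peg3, a paternally expressed zinc finger gene, had levels of 6.67, 7.56 and 7.94 in lean and 7.92, 8.26 and 8.93 in lean-HFD mice, a difference of 0.89 ± 0.24 (adjusted p = 0.821). Gadd45g, a stress-induced growth regulator, differed by 0.86 ± 0.24, Sec14l2, a lipid transfer protein, by 0.86 ± 0.27, the steroid dehydrogenase gene Hsd3b2 by 0.70 ± 0.21, and the mitochondrial adenylate kinase gene Ak4 by 0.68 ± 0.20. Enc1, Zfp97, Gbp4, Mcemp1, Hs3st6 and Iigp1 ranged from 0.50 to 0.59. Gbp4 and Iigp1 encode interferon-induced GTPases, and of 12 measured interferon response genes 8 were higher with a median of 0.03, while Mx1 differed by -0.32 ± 0.09.

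Of 24 measured genes of fatty acid oxidation and PPAR-alpha targets 15 were higher, with a median of 0.07, and Vnn1 was the only one in the looser set. Cyp4a14, a fatty acid hydroxylase, had 1.83 ± 0.73 (r with Alb 0.58), Ech1, an enzyme of beta-oxidation, 0.17 ± 0.07, and Ppara itself 0.24 ± 0.18. Of 13 genes of fatty acid uptake 7 were lower (median -0.04), with lipoprotein lipase Lpl at -0.14 ± 0.07, the receptor Vldlr at -0.27 ± 0.14, the carrier Fabp5 at -0.21 ± 0.11 and the apolipoprotein Apoc1 at 0.23 ± 0.08. Of 17 genes of lipolysis and the lipid droplet 11 were higher (median 0.03), among them the lipase inhibitor G0s2 (0.25 ± 0.14) and the lipase activator Abhd5 (0.26 ± 0.18), while Plin3 had -0.32 ± 0.15 and Cidea -0.68 ± 0.52. No member of the uptake and lipolysis lists was in the looser set.

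**Figure D4:**
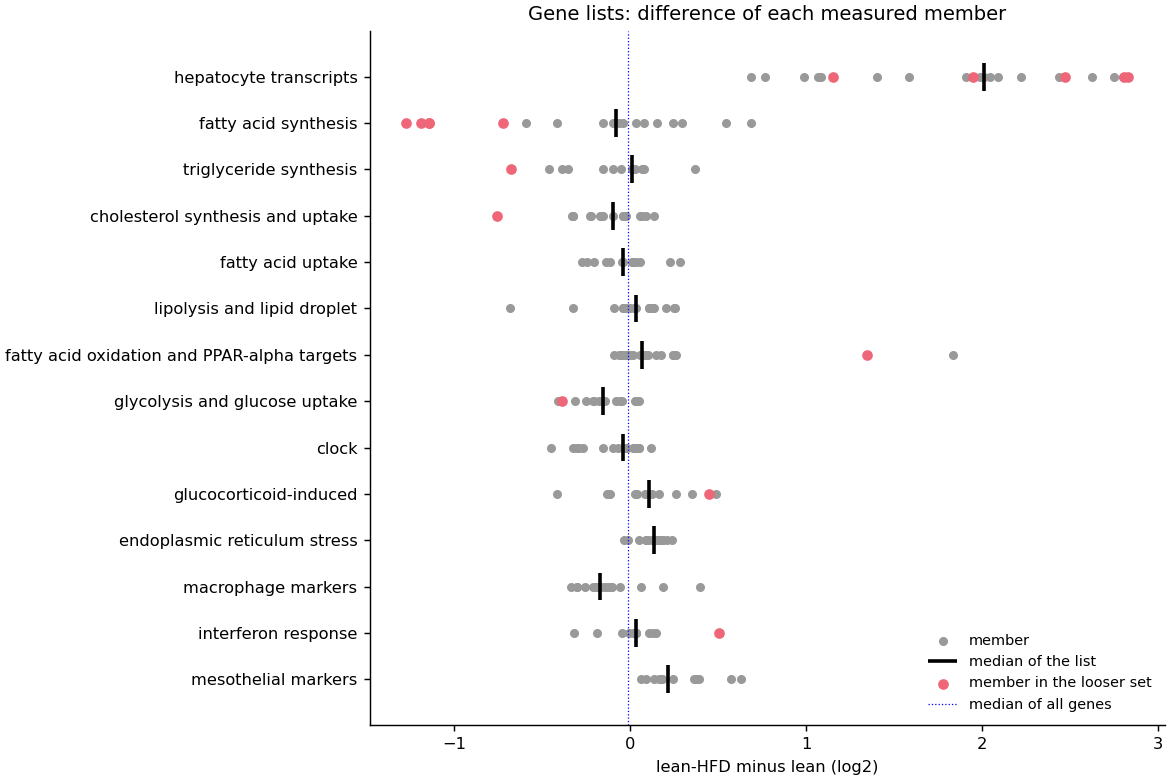
Difference of lean-HFD minus lean (log2, horizontal axis) for each measured member of 14 gene lists; grey points are members, red points members in the looser set, black bars list medians and the dotted line the median of all 22180 genes (-0.01). The hepatocyte list starts at 0.69, and 5 members of the fatty acid synthesis list lie at -0.72 or below.

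Hormone and stress genes had small values. Among 12 glucocorticoid-induced genes 9 were higher (median 0.11), and the kinase gene Sgk1 was in the looser set (0.45 ± 0.11, adjusted p = 0.786), with Fkbp5, a glucocorticoid receptor cochaperone, at 0.49 ± 0.22, Errfi1 at 0.35 ± 0.16 and Zbtb16 at 0.26 ± 0.17. Among 15 genes of endoplasmic reticulum stress 13 were higher (median 0.13), led by the chaperones Calr (0.19 ± 0.07), Pdia6 (0.24 ± 0.11) and Hspa5 (0.16 ± 0.09), with Herpud1 at 0.18 ± 0.09. Of 17 clock genes 11 were lower (median -0.04), with Ciart at -0.45 ± 0.19, Bhlhe41 at -0.31 ± 0.14, Nr1d1 at -0.29 ± 0.13 and Bhlhe40 at -0.32 ± 0.22. Apart from Sgk1, no gene of these 3 lists was in the looser set.

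Markers of other cells in the pad were measured beside these groups. Of 19 macrophage markers 16 were lower, with a median of -0.17 and none in the looser set, and their mean level ran from 7.75 to 8.13 in lean and from 7.75 to 7.97 in lean-HFD mice. Folr2 (-0.30 ± 0.11), Lyve1 (-0.34 ± 0.13), Csf1r (-0.26 ± 0.12) and C1qb (-0.21 ± 0.10) had the smallest p. The myeloid markers Cd68, Adgre1, Itgam, Mrc1, Clec10a and Itgax and the cytokines Tnf and Il6 had differences between -0.29 and 0.06. All 12 mesothelial markers were higher, with a median of 0.21 and none in the looser set, led by Upk3b (0.37 ± 0.18), Upk1b (0.57 ± 0.27), Lrrn4 (0.39 ± 0.19) and Muc16 (0.36 ± 0.28), and their mean level ran from 6.50 to 7.47 and from 6.82 to 7.69. Of 15 markers of epididymis, sperm and ciliated duct 9 were lower (median -0.26, none in the looser set), with the cilium gene Sntn at -1.09 ± 0.90, and their means ran from 4.21 to 6.02 in lean and from 4.28 to 6.59 in lean-HFD mice, and those of 13 muscle markers from 4.79 to 5.21 and from 4.84 to 5.45. Their part in the differences above was not tested.

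The formerly obese mice gave a second measure of the same 48 h exposure, on arrays that are not shared. No probe set was called (0%), and 253 (0.612%) were in the looser set, with 2207 at an unadjusted p under 0.05. The lipogenic genes were again lower, with differences of -1.12 ± 0.27 for Fasn, -1.28 ± 0.17 for Acly, -1.55 ± 0.34 for Elovl6, -1.07 ± 0.32 for Acss2 and -0.69 ± 0.19 for Me1, all 5 in the looser set (limma, adjusted p from 0.250 to 0.876). Two-sided exact permutation tests of single genes over these 12 arrays gave p = 0.0065 for Fasn, p = 0.0022 for Acly, which is the smallest that 924 splits allow, p = 0.0087 for Elovl6, p = 0.0238 for Acss2 and p = 0.013 for Me1, among 18 genes tested in this way and without adjustment. Acly levels did not overlap, with 9.53 to 10.18 in formerly obese and 8.07 to 9.16 in formerly obese-HFD mice (0.177% of all probe sets were lower without overlap there).

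Other genes of the looser set in lean mice were measured in the formerly obese mice too. Passing or failing a test in these mice does not show a difference from lean mice, which the interaction below tested. Enpep (-0.72 ± 0.19, exact permutation p = 0.0152), Plagl1 (-0.97 ± 0.23, p = 0.0022), Trhde (-0.99 ± 0.24, p = 0.0065), Odf3l1 (-0.86 ± 0.24, p = 0.0152), Vnn1 (0.68 ± 0.20, p = 0.0087) and Peg3 (0.68 ± 0.20, p = 0.0195) were in the looser set in the same direction. Pkm had -0.28 ± 0.10 (exact permutation p = 0.0173) and Sorl1 -0.52 ± 0.20 (p = 0.0433). Folh1 (0.04 ± 0.41, exact permutation p = 0.929), Nsdhl (-0.32 ± 0.23, p = 0.242), Sec14l2 (-0.25 ± 0.31, p = 0.758), Hsd3b2 (0.04 ± 0.13, p = 0.799) and Gadd45g (0.44 ± 0.24, p = 0.126) did not pass that test. In all, 22 probe sets were in both looser sets with the same sign, 8.30% of the lean and 8.70% of the formerly obese set. They were 0.0532% of all probe sets. Among them, 17549286, 17425978, 17549386 and 17549764 followed Alb (r from 0.73 to 0.80), and Tdo2 had r = 0.66. The values of 17549386 and 17549764 were identical, and Plagl1 was counted at both of its probe sets.

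**Figure D5:**
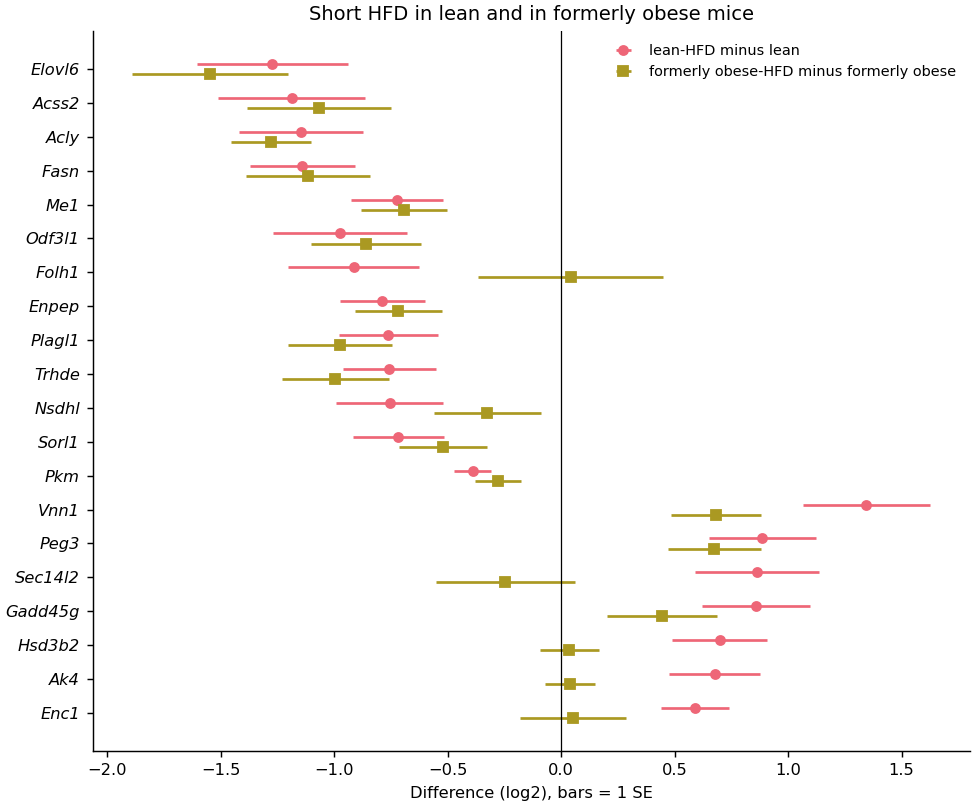
Difference after 48 h of HFD (log2, horizontal axis) in lean mice, red circles, and in formerly obese mice, yellow squares, for 20 named genes; bars are 1 SE of the limma fit and each group has 6 arrays. The 5 lipogenic genes at the top lie between -1.55 and -0.69 in both, whereas Folh1, Sec14l2, Hsd3b2, Ak4 and Enc1 lie between -0.25 and 0.05 in formerly obese mice.

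The difference between both histories was tested as an interaction over 24 arrays, and no probe set was called (0%), with 239 (0.578%) at an unadjusted p under 0.01 past the filters and 1904 at an unadjusted p under 0.05. Lean minus formerly obese responses were -0.02 ± 0.38 for Fasn, 0.13 ± 0.34 for Acly, 0.27 ± 0.50 for Elovl6, -0.12 ± 0.48 for Acss2 and -0.03 ± 0.29 for Me1. With SEs of 0.29 to 0.50 log2 units, gaps of several SE could still have been missed at this number of mice. Probe set 17206469 had the smallest adjusted p of the interaction (limma, 0.265), and its 1.37 ± 0.24 was not called. The genes with the smallest interaction p, Slc35f3, Cdhr1, Tuft1 and Pyroxd2, were lower in lean-HFD mice (-0.59, -0.21, -0.17 and -0.43) and higher in formerly obese-HFD mice (0.60, 0.25, 0.32 and 0.38), and Mcm9 was the reverse (0.27 and -0.19), none past the adjusted threshold.

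In a fit added after the data had been seen, the exposure was averaged over both histories on the same 24 arrays. It called 23 probe sets (0.0556%), 5 higher and 18 lower. Among the higher ones, 17549386 and 17549764 had identical values (2.26 ± 0.37) and followed Alb (r = 0.80). Among the lower ones, 17549536 and 17549700 had identical values, and Plagl1 was counted at both of its probe sets. Acly fell by 1.21 ± 0.17 on the log2 scale (adjusted p = 0.0112), Fasn by 1.13 ± 0.19 (0.0345), Elovl6 by 1.41 ± 0.25 (0.0532) and Me1 by 0.71 ± 0.14 (0.0905), while Acss2, at -1.13 ± 0.24, missed the threshold (adjusted p = 0.110). Enpep, Plagl1 and Trhde also fell (adjusted p = 0.0651 each), Pkm had the same adjusted p but missed the fold limit (-0.33), and Vnn1 (1.01 ± 0.18, adjusted p = 0.0532) and Peg3 (0.78 ± 0.16, adjusted p = 0.0965) rose.

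Values in mice kept on HFD for 27 weeks are set beside these, although that comparison uses the same 6 lean arrays. It called 2496 probe sets (6.04%). Obese minus lean differences were -0.25 for Fasn, -0.41 for Acly, 0.08 for Elovl6, 0.25 for Acss2 and 0.17 for Me1, none called, while Acaca had -1.14 and was called (adjusted p = 0.00209). Vnn1 had 0.14 and was not called, Peg3 had 1.25 (adjusted p = 0.00681), Enpep -0.81 (0.00267), Plagl1 -1.49 (0.00438) and Trhde -0.74 (0.0196). Alb had -1.82 (adjusted p = 0.151), and the 78 probe sets that followed Alb had a median of -0.55. The macrophage markers Cd68 and Itgax, at -0.18 ± 0.15 and 0.04 ± 0.15 in lean-HFD mice, had 1.71 (adjusted p = 0.00054) and 2.88 (0.00027) in obese mice.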

How the data were processed

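Total RNA of gWAT was amplified and hybridised by the authors to Affymetrix Mouse Gene 2.0 ST arrays, which have 1 colour, using mice whose RNA passed an integrity limit. The authors summarised probes with RMA (background correction, quantile normalization, median polish) in Affymetrix Expression Console 1.4.1.46, and these deposited log2 values entered every fit without further change. The genome build of the probe sets is not given in the sources used here. Of 41345 probe sets 23521 had 1 symbol in the platform annotation, 1820 several and 16004 none, and 1395 had values equal to those of another.

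Differences were fitted in R 4.3.3 with limma 3.58.1 (lmFit, eBayes, two-sided) on the 12 arrays compared, with Benjamini-Hochberg adjustment over all probe sets. The adjusted p limit of 0.10, the fold limit of 1.3, the level limit of 16 and the looser p of 0.01 follow the study's methods for this tissue. Following Alb meant a Pearson r of 0.7 or more over 30 arrays after subtraction of group means. Genes were represented by the probe set of highest mean with exactly 1 symbol. Outside predicted genes, small RNAs, olfactory receptors, receptor segments and followers of Alb, the text names the 12 genes with the largest fold each way. They were drawn first among called genes and otherwise among those of the looser set. Also named are up to 4 genes of each described list ranked by p, 5 genes of the interaction, the genes the study measured by qPCR, and label checks. Among followers of Alb, the rule took the 8 nearest to Alb and the 6 with 1 symbol in the looser set. Of the 8 nearest, Mup3, Serpina1d and Serpina1c count among the 114 named genes but are not described. Further list members were added after their values were seen. Members and lists were chosen with earlier results of these data known, so no list was tested as a set. The number of arrays limits the precision.

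The code was tested on simulated data for lean-HFD against lean, 41345 probe sets with 200 shifted. It found 34 of 67 shifts of 0.5, 55 of 67 shifts of 1 and 61 of 66 shifts of 2 (log2), made 13 false calls, and made 0 when none was shifted. Promoter windows came from RefSeq (GRCm38.p6). Python 3.11.15 and matplotlib 3.10.9 drew the figures. Alternatives covered filters, normalization, covariates, samples in the fit, a replicate block and leaving out each array.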

Additional observations from a re-analysis of the deposited data

Results flagged for a closer look

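For the 114 named genes, each group of 6 lean or lean-HFD arrays was searched for a single array far from the others, as the gap to its neighbour divided by the range of the group. The gap passed Dixon's limit in 13 of 228 gene groups (5.70%), and chance alone passes about 1 in 20. The cause was not tested for any of them.

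In lean-HFD mice the gap was 0.675 of the range for Acly (replicate 2 at 9.50, the others from 8.16 to 8.60), 0.711 for Lpl (replicate 6 at 12.24, others from 12.44), 0.652 for Ciart (replicate 1 at 5.36, others from 5.96), 0.773 for Zbtb16 (replicate 3 at 8.94, others up to 8.11), 0.682 for Ifit1 (replicate 4 at 7.28, others up to 6.54), 0.705 for Pyroxd2 (replicate 6 at 3.88, others from 4.38) and 0.681 for Fabp4 (replicate 1 at 12.73, others from 12.87).

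In lean mice it was 0.637 for Fga (replicate 4 at 7.73, others up to 5.31), 0.753 for Dgat2 (replicate 2 at 10.65, others from 11.17), 0.804 for Cidea (replicate 6 at 8.84, others up to 6.02), 0.635 for C1qb (replicate 2 at 8.36, others from 8.67), 0.635 for Mcm9 (replicate 6 at 5.50, others up to 5.30) and 0.646 for Il6 (replicate 4 at 3.92, others up to 3.35). Lean replicate 4, far above the others for Fga, was also the lean array with the most Alb, and lean-HFD replicate 2, far above for Acly, was the array with the highest mean of the lipogenic genes in its group.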

How the results depend on the processing

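Precision is limited by 6 arrays per group. Of 2733 values of 114 named genes under 24 alternatives, 2696 kept their direction and side of the threshold, 11 newly passed it and 26 changed sign, none of them called in any setting. The 11 were Vnn1 with all 30 arrays in the fit (adjusted p = 0.0649) and 10 genes on average over both histories, 9 of them past the fold limit too. All 5 lipogenic genes kept their sign in every setting run, with values from -1.51 to -0.59 and adjusted p from 0.0112 to 0.930.

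The count of called probe sets, 1, became 0 with a replicate block and with probe sets of 1 symbol only, 3 with the level filter before adjustment or with Alb as a covariate, 5 with the hepatocyte mean as a covariate or all 30 arrays, 23 on average over both histories and 265 at the unadjusted p, and ran from 0 (without lean-HFD replicate 3) to 4 (without lean replicate 2). The looser set of 265 became 407 without the fold filter, 123 with 1 symbol only, 419 and 462 with either covariate (118 and 131 of the original members) and 463 with 30 arrays, and ran from 235 (without lean replicate 5) to 381 (without lean-HFD replicate 1). Its split, 175 higher and 90 lower, became 153 and 110 after new quantile normalization, 144 and 112 after median centring, 207 and 212 with Alb as a covariate, and 172 and 174 without lean replicate 2. Followers of Alb, 78, were 152 at r of 0.6, 38 at 0.8, 895 at 0.4, 462 on the 12 arrays alone and 174 with the hepatocyte mean as reference. In formerly obese mice 253 and for the interaction 239 probe sets passed the unadjusted p, and the interaction called 1 with the block. The labels do not say whether replicate numbers pair the mice. Correlations of deviations by replicate number ran from -0.227 to 0.156, which cannot show whether mice were matched. The block moved the looser set to 349. The average over both histories, r of 0.4 and the alternatives for the looser set were added after the data had been seen. Why these values moved was not tested.

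Sign changes under Alb as a covariate were Apoa2 -0.27, Fabp1 -0.035, Hamp -0.51, Ttr -0.35, Tnf 0.060 and Cidec -0.0023, and under the hepatocyte mean Alb -0.046, Apoa2 -0.42, Hamp -0.61, Ttr -0.51, Pzp -0.00031, Tnf 0.018 and Cidec -0.0089. Leaving out an array gave -0.070 to 0.11 for Itgax, -0.12 to 0.041 for Tnf, -0.00017 to 0.042 for Fabp4 and -0.080 to 0.0057 for Lipe, and median centring gave Fabp4 -0.006. On average over both histories the values were Slc35f3 0.00067, Cdhr1 0.020, Tuft1 0.076, Itgax -0.14, Tnf 0.035 and Fabp4 -0.031.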

Other observations

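Lists that the report does not describe had these values in lean-HFD against lean mice, each with 0 members in the looser set. Of 20 genes of mitochondrial respiration 17 were lower (median -0.06), of 23 extracellular matrix genes 18 were lower (median -0.10), and of 19 cell cycle genes 15 were lower (median -0.11). Of 20 markers of T, NK and B cells 16 were higher (median 0.14), with the T cell receptor gene Cd3d at 0.49 ± 0.20 and the antibody chain gene Jchain at 0.64 ± 0.51. Of 16 insulin signalling genes 12 were higher (median 0.05), and of 20 genes of branched-chain amino acid breakdown 14 were higher (median 0.06).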
